A study of Homo sapiens with 12 samples.

Results

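CS2164, also called chiauranib, is an oral small molecule. It inhibits Aurora kinase B and several receptor kinases, namely those of VEGF along with KIT, PDGFRA and CSF1R. Tumours of mice given CS2164 without radiation were compared here with control tumours, over every protein-coding gene of the deposited count table. The comparison takes 6 of the series' 12 libraries, 3 from CS2164 tumours and 3 from control tumours. The table lists 19988 protein-coding genes, of which 13521 had enough counts to be tested. Mice of the CS2164 group received 10 mg/kg of the inhibitor per day by gavage and no radiation, and control mice received the solvent alone by the same route and no radiation. All tumours were subcutaneous xenografts in BALB/c nude mice aged 6 weeks. They grew from injected cells of Huh-7, a human line of hepatocellular carcinoma, so the results describe 1 cell line in a host without mature T cells. Treatment began at a mean tumour volume of 150 to 200 mm3. The other libraries, IR (2 Gy in each of 10 fractions) and CS2164_IR (both treatments), shared the estimate of the spread and are compared only at the end. The cell line label reads Huh-7 throughout, while the titles of the CS2164 samples read Huh-8 and those of the control samples Huh-7. Nothing says that the 3 libraries of a group came from separate mice, so p-values measure only the spread between these libraries.

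Aurora kinase B is the catalytic subunit of the chromosomal passenger complex, which corrects wrong attachments of chromosomes to the spindle and is needed to complete cell division. VEGF receptors act mainly on endothelial cells, which in a xenograft belong to the mouse host. Hepatocellular carcinoma cells keep parts of the hepatocyte programme, among them the secretion of plasma proteins and lipoproteins, the synthesis of sterols and fatty acids and the uptake of lipoproteins through surface receptors.

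The tumours carried the transcripts of their labelled origin. All 14 hepatocyte and hepatocellular carcinoma markers were tested. At an edgeR adjusted p under 0.05, 3 were higher in CS2164, 0 lower and 11 not called (median log2 change 0.11). Over all tested genes 19.7% were called in either direction. The 3 rises became 1 without control replicate 2, without CS2164 replicate 1 or without both. ALB, which encodes albumin, had 12542, 17748 and 21688 CPM in CS2164, against 20584, 23802 and 19985 CPM in control. AFP, the fetal liver protein, had 9714, 15061 and 17808 CPM in CS2164, against 18173, 21797 and 16075 CPM in control and did not pass the test at a log2 change of -0.40 ± 0.23 (edgeR adjusted p of 0.226), which turned to 0.11, again with no call, once the trends of each library over gene length and GC content were removed. Both genes were lowest in CS2164 replicate 1, and the other values of both groups overlapped. Human marker genes of other cell types (red blood cells, fat, muscle, skin, lymphoid, myeloid, fibroblast and endothelial cells) summed to 0.0162% to 0.0210% of the counts in CS2164 libraries and 0.0143% to 0.0158% in control libraries. Of 13 endothelial markers 5 (EMCN, ERG, PLVAP, ROBO4 and TEK) were at 0 in all 6 libraries. The other 8 had counts, led by PECAM1, an adhesion molecule of endothelial cells and platelets, with 9.35, 9.24 and 8.13 CPM in CS2164, against 11.1, 6.60 and 8.14 CPM in control. Summed over the 13 markers the level was 0.00117% to 0.00127% of the counts in CS2164 and 0.00100% to 0.00160% in control, and the ranges overlapped. The part of reads from other cells in the results was not tested.

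Libraries held 13981180 to 16597727 counts in CS2164 and 13780587 to 16691525 in control. In each group 1 library stood apart. CS2164 replicate 1 had a mean Spearman correlation of 0.973 with its group mates, which correlated at 0.994 with each other, and control replicate 2 had 0.979, its mates also 0.994. CS2164 replicate 1 carried more counts from genes rich in G and C: its deviations from the mean of the 6 libraries correlated with GC content at a Spearman rho of 0.747 across genes, against -0.04 and -0.18 in CS2164 replicates 2 and 3 and -0.24, -0.31 and -0.48 in control replicates 1 to 3. The same correlation with gene length was -0.04, 0.32 and 0.43 in CS2164 replicates 1 to 3 and -0.08, -0.35 and 0.04 in control replicates 1 to 3, so that for length the groups overlapped. These correlations are across genes, which are not independent replicates. Mitochondrially encoded transcripts took 5.13%, 5.74% and 5.92% of the counts in CS2164 and 7.00%, 7.53% and 8.92% in control. The part of GC content, gene length and RNA quality in the results was not tested. CS2164 replicate 1 and control replicate 2 are called the distant libraries, and values without both of them, or with the trends of each library over length and GC content removed, stand beside the results.

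**Figure D1:**
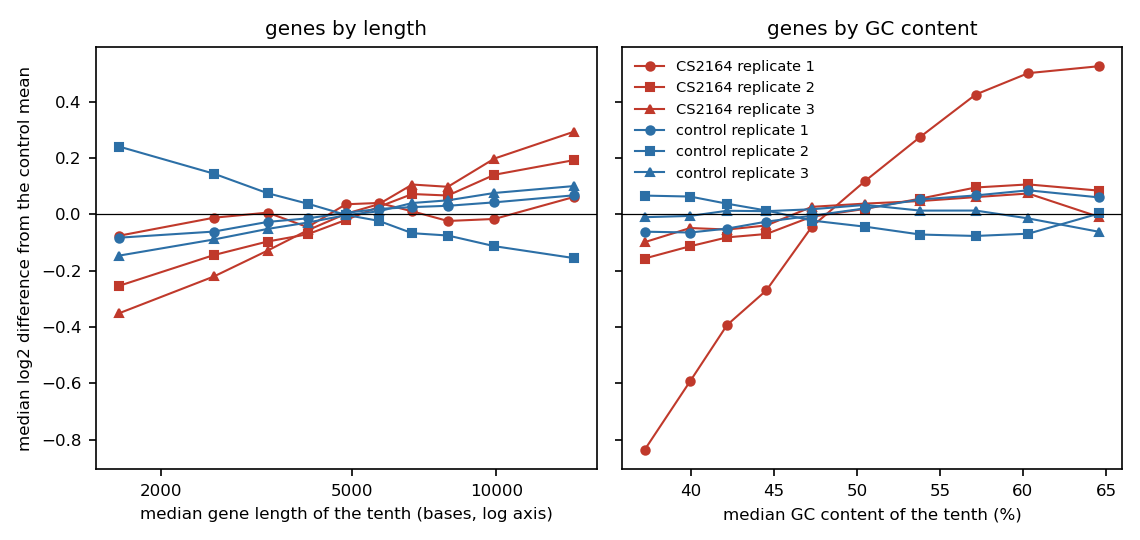
Median log2 difference from the control mean in each library (vertical axis), for 10 equal bins of the tested genes ordered by gene length (left, bases) or GC content (right, percent). CS2164 replicate 1 climbs with GC content, CS2164 replicates 2 and 3 climb with length and control replicate 2 descends with length.

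CS2164 tumours differed from control tumours in 2669 of 13521 tested genes (19.7%), with 1409 higher (10.4%) and 1260 lower (9.32%) at an adjusted p under 0.05 in the quasi-likelihood test of edgeR. Most changes were moderate: the median called gene was 1.59-fold higher or 1.61-fold lower, and 191 genes rose and 129 fell by more than 2-fold. All 3 CS2164 libraries lay on 1 side of all 3 control libraries in 4918 genes (36.4%). Genes that rose were longer (median 7623 bases) and richer in GC (55.1%) than genes that fell (3980 bases, 42.2%), beside 5236 bases and 48.7% over all tested genes. CS2164 replicate 1 was the CS2164 library farthest from control in 1037 of the rises and 977 of the falls. Control replicate 2 was the control library farthest from CS2164 in 1241 of the rises and 1096 of the falls. In the fit over all 12 libraries no gene passed a test against a 2-fold minimum. Fitted on these 6 libraries alone, without the spread shared with the irradiated groups, 200 genes were higher and 85 lower. Without both distant libraries 624 genes were higher (4.57%) and 339 lower (2.48%), 963 in all (7.05%). Without control replicate 2 alone 419 were higher and 202 lower, and without CS2164 replicate 1 alone 920 were higher and 756 lower. With the trends of each library over length and GC content removed, 1168 were higher (8.65%) and 1210 lower (8.96%), 2378 in all (17.6% of the 13501 genes with a length and a GC content). With both changes together 510 were higher (3.74%) and 357 lower (2.62%), 867 in all (6.36%). In a bulk library fewer cells of a type and less RNA per cell cannot be told apart.

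Most genes named here belong to a core set of 707 genes (5.23%) that changed in the same direction in all 3 of these fits (all libraries, without both distant libraries, trends removed) and whose groups did not overlap. The core set held 476 genes that rose (3.52%) and 231 that fell (1.71%). Separate groups are thus a condition of the core set and not a result for its genes. Of the 707, 503 kept their call without control replicate 2, 693 without CS2164 replicate 1 and 486 when any of the 12 libraries was left out in turn. The set was chosen by a fit without both distant libraries, which favours such genes. Of all 2669 called genes 613 kept their call without control replicate 2, 1439 without CS2164 replicate 1 and 579 with any library left out. With the trends and both distant libraries removed together 486 of the 707 kept it. The core genes that rose did so by a median of 1.75-fold and those that fell by a median of 1.71-fold. Over all tested genes the median log2 change was -0.01, and it stayed at -0.01 without the distant libraries and with the trends removed. The library protocol names no step that marks strand, so where genes overlap their reads cannot be told apart. Among the rises named this touches at least LRP1 (with STAT6), HSPG2 (LDLRAD2), ITPR3 (UQCC2), MCM2 (TPRA1), CCND1 (LTO1) and TLN1 (CREB3). It also touches the rises of NCSTN (COPA), PNPLA3 (SAMM50), C4A (STK19) and SMC1A (RIBC1). Among falls it touches at least SDHD (TIMM8B), GLMN (RPAP2), CEBPZOS (CEBPZ), MRPS6 (SLC5A3), SRSF2 (MFSD11), PSMG2 (CEP76), RPS27A (CLHC1) and ANAPC13 (CEP63). Gene lists are described by their counts and medians beside these background values, without a test of the list.

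**Figure D2:**
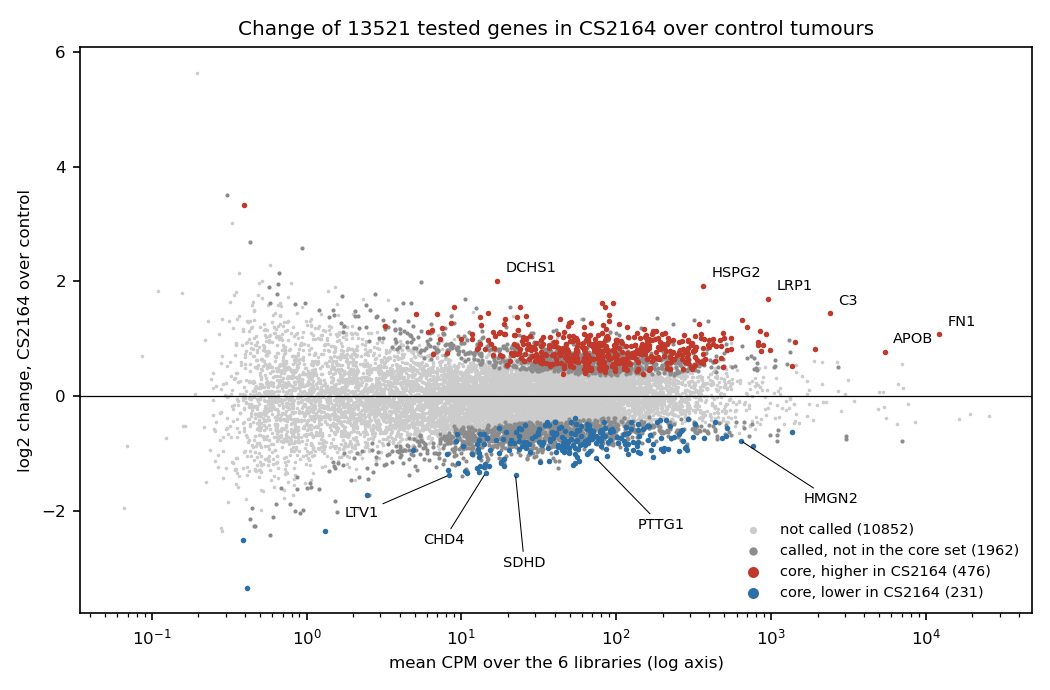
Log2 change of every tested gene in CS2164 over control (vertical axis) against its mean CPM over the 6 libraries (horizontal log axis). The 476 core genes that rose are red, the 231 that fell are blue, and the most abundant marked rises are FN1, APOB and C3.

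The transcript of the mitotic target itself was lower. AURKB, the catalytic subunit of the passenger complex (chromosome 17, 8204733 to 8210600), had 58.7, 53.5 and 51.2 CPM in CS2164 replicates 1 to 3, against 77.3, 77.2 and 72.6 CPM in control replicates 1 to 3. The groups did not overlap, and the fall of 0.48 ± 0.13 (adjusted p of 0.0220, edgeR) stayed a call without both distant libraries and with the trends removed. It missed the threshold when control replicate 2 was left out (-0.46), and likewise for CS2164 replicates 2 (-0.46) and 3 (-0.43). Of the other kinase targets only PDGFRA was tested, with 9.09, 12.1 and 12.5 CPM in CS2164, against 10.5, 8.73 and 9.88 CPM in control. Its log2 change of 0.21 ± 0.22 missed the threshold (edgeR adjusted p of 0.522). FLT1, KDR, FLT4 and KIT had 0 counts in all 6 libraries, which allows up to 0.180 to 0.218 CPM by counting error, and CSF1R had at most 5 counts in a library.

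Many other mitotic genes fell too. Of 72 tested genes of mitosis, spindle and kinetochore 31 fell, 1 rose and 40 did not pass. The median was -0.45, against -0.28, 0 rises and 10 falls without both distant libraries, and -0.26, 0 rises and 17 falls with the trends removed. The number that fell was 8 without control replicate 2, 16 without CS2164 replicate 1 and 19 without control replicate 3, and 8 were core genes. PTTG1, the securin that blocks the separation of sister chromatids until anaphase, had 42.2, 55.2 and 44.9 CPM in CS2164 replicates 1 to 3, against 78.4, 138 and 84.3 CPM in control replicates 1 to 3, a change of -1.08 ± 0.18. CCNB1, the cyclin that drives entry into mitosis, had 71.3, 97.9 and 88.0 CPM in CS2164, against 136, 166 and 155 CPM in control, a change of -0.83 ± 0.14. In both genes every CS2164 library was below every control library, with control replicate 2 the highest. The other core members, taken after their values were seen, were UBE2C (-0.69), which tags mitotic proteins for destruction, the passenger subunit BIRC5 (-0.74), the centromeric histone CENPA (-0.76), the checkpoint protein MAD2L1 (-0.78) and the mitotic kinase CDK1 (-1.03), which did not pass without control replicate 2 (-0.88). CENPW, a kinetochore component, fell by 0.97 ± 0.18 but stood at -0.12 with the trends removed, where it was no call. The member that rose was INCENP, the scaffold of the passenger complex (0.44 ± 0.14). That call ended without both distant libraries, with the trends removed, and when control replicate 2, CS2164 replicate 1 or 2, any IR library or CS2164_IR replicate 1 or 3 was left out. The list's mean log2 difference from control was -0.82, -0.28 and -0.29 in CS2164 replicates 1 to 3 and -0.08, 0.03 and 0.05 in control replicates 1 to 3. CS2164 replicate 1 lay far below its mates, which were below all control libraries.

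The starts of these genes are shown because promoters of mitotic genes are known for CCAAT boxes, which bind NF-Y, and for the cell cycle homology element TTTGAA. Both were searched on both strands in the 250 bases before the RefSeq start (GRCh38.p14), written 5′ to 3′ on the gene's strand with matches to CCAAT in capitals. Where a gene had more than 1 start, the window with the lowest coordinate was taken. On the minus strand that is the start farthest downstream. PTTG1 and AURKB had 2 starts each, and the AURKB window lies within the gene span given above. A match on the other strand reads ATTGG. No match to TTTGAA lies in these 4 windows, and CYP51A1, an enzyme of sterol synthesis that rose, is set beside them.
PTTG1 (chr5:160421605-160421854, plus strand): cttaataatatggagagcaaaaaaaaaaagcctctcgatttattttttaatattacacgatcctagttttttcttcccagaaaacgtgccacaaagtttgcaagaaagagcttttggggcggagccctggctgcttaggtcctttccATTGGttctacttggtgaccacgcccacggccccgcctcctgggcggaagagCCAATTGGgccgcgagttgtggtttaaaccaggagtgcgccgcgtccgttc
CCNB1 (chr5:69166900-69167149, plus strand): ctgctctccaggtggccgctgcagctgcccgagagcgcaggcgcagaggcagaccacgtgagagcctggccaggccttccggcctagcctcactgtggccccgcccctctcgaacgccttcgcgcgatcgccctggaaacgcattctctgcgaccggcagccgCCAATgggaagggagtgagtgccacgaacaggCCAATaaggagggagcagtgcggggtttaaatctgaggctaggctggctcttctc
AURKB (chr17:8210226-8210475, minus strand): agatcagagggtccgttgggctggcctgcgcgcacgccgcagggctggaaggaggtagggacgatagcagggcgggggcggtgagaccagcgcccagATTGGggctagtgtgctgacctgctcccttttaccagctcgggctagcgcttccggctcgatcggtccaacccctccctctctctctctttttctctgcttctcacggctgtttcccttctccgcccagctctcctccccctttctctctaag
CYP51A1 (chr7:92134478-92134727, minus strand): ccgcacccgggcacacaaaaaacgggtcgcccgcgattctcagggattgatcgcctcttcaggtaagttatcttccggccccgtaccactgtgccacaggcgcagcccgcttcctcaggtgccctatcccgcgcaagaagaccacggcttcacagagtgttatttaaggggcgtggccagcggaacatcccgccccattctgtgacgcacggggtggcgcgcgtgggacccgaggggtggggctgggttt
PTTG1 has 3 matches to CCAAT, with 2 of them sharing bases, CCNB1 has 2, AURKB 1 and CYP51A1 0. The CCAAT letters occur in 32.0% of all 35116 promoter windows of the table and TTTGAA in 13.3%. The table held a promoter for 25 of the 31 mitotic genes that fell. With 1 window a gene, chosen by the same coordinate rule, 21 of them held CCAAT (84.0%) and 11 TTTGAA (44.0%). Among 37 members that were tested and did not fall, 28 held CCAAT (75.7%) and 18 TTTGAA (48.6%). Over all tested genes with a window the shares were 34.6% and 9.11%. A match is a description of letters and not of a bound factor.

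Other parts of the cell cycle moved less evenly, beside 19.7% of all tested genes called in either direction. Of 16 tested members of the anaphase-promoting complex, the ubiquitin ligase that acts on securin and cyclin B, 6 fell and 2 rose (median -0.34, against -0.12, 1 rise and 3 falls without both distant libraries, and -0.28, 1 rise and 8 falls with the trends removed). The 2 rises became 0 without control replicate 2 and 1 without CS2164 replicate 1, and the 6 falls became 2 without control replicate 2. CDC16 had 40.3, 49.7 and 46.1 CPM in CS2164, against 65.6, 83.9 and 68.9 CPM in control, a fall of 0.68 ± 0.15, and ANAPC13 fell by 1.01 ± 0.19. Of 56 replication and S phase genes 3 rose, 6 fell and 47 did not pass, a share of calls under that over all tested genes. The 3 rises became 5 without control replicate 1, and the 6 falls became 1 without control replicate 2 or without both distant libraries, 3 without CS2164 replicate 1 or with the trends removed and 10 without CS2164 replicate 2 or control replicate 1. MCM2, a subunit of the replicative helicase, was at 206 to 275 CPM in CS2164 and 70.7 to 136 CPM in control, a rise of 1.12 ± 0.22. CCND1, which encodes cyclin D1 of the G1 phase, rose by 0.76 ± 0.18, and ORC6, of the origin recognition complex, fell by 0.76 ± 0.15. Of 28 p53 targets 3 rose, 5 fell and 20 did not pass. The 3 rises became 0 without control replicate 2 and 1 without CS2164 replicate 1 or without both distant libraries, and the 5 falls became 2 without control replicate 2 or without both distant libraries and 3 without CS2164 replicate 1 or 2. TRIAP1, an inhibitor of apoptosis, had 7.13, 7.72 and 11.0 CPM in CS2164, against 16.7, 23.2 and 19.1 CPM in control and fell by 1.19 ± 0.21.

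The largest rises among core genes with at least 10 CPM in 1 group included cell surface and matrix proteins. DCHS1, a giant cadherin of the Hippo and planar polarity pathways (chromosome 11, 6621323 to 6655854), had 38.2, 19.8 and 23.9 CPM in CS2164 replicates 1 to 3, against 10.5, 2.89 and 7.02 CPM in control replicates 1 to 3. HSPG2, which encodes perlecan, a heparan sulfate proteoglycan of basement membranes (chromosome 1, 21822245 to 21937297), had 696, 485 and 556 CPM in CS2164, against 207, 54.5 and 196 CPM in control. LRP1, a large endocytic receptor (chromosome 12, 57128493 to 57213351), had 1955, 1186 and 1263 CPM in CS2164, against 529, 324 and 501 CPM in control. In each of these genes the highest library was CS2164 replicate 1 and the lowest control replicate 2, and no values overlapped, which the core set requires. The rises were 2.01 ± 0.32, 1.92 ± 0.37 and 1.70 ± 0.22 on the log2 scale (edgeR adjusted p of 0.00400, 0.00652 and 0.00233). DCHS1 stood at 1.32 without both distant libraries and 1.49 with the trends removed, HSPG2 at 1.37 without both distant libraries and 1.35 with the trends removed and LRP1 at 1.25 without both distant libraries and 1.07 with the trends removed. Next came HAVCR1, a phosphatidylserine receptor known as kidney injury molecule, with 147, 100.3 and 119 CPM in CS2164, against 43.6, 28.9 and 46.7 CPM in control, a rise of 1.62 ± 0.23 that was as large with the trends removed (1.93). ITPR3, an inositol trisphosphate receptor calcium channel, rose by 1.62 ± 0.40, but without CS2164 replicate 1 it stood at 1.19 and did not pass. NCR3LG1, the B7-H6 ligand of the natural killer cell receptor NKp30, was at 11.5 to 15.4 CPM in CS2164 and 1.07 to 6.77 CPM in control and rose by 1.56 ± 0.40. MTSS2, a membrane curvature protein, rose by 1.55 ± 0.27, FBXL18, a ubiquitin ligase subunit, by 1.55 ± 0.24, and BCL9L, a coactivator of beta-catenin, by 1.42 ± 0.28. LRRC3 (1.45 ± 0.25) and TMEM151A (1.43 ± 0.33) completed the 12 together with C3.

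Many basement membrane genes rose. Of 30 tested laminins, basement membrane and matrix glycoproteins 16 rose, none fell and 14 did not pass. The median was 0.57, against 0.52 and 10 rises without both distant libraries, and 0.39 and 11 rises with the trends removed. Without control replicate 2 the number that rose was 9, and 8 were core genes. FN1, which encodes fibronectin, was the most abundant gene to rise, with 19291, 14481 and 15793 CPM in CS2164 replicates 1 to 3, against 8685, 6567 and 8187 CPM in control replicates 1 to 3, a change of 1.08 ± 0.18. AGRN, which encodes agrin, a heparan sulfate proteoglycan, had 1303, 846 and 791 CPM in CS2164, against 494, 343 and 443 CPM in control, a rise of 1.20 ± 0.19. NID1, which encodes nidogen, the link between laminin and collagen IV networks, had 1291, 1094 and 1069 CPM in CS2164, against 662, 496 and 696 CPM in control, a rise of 0.90 ± 0.16. None of these values overlapped between the groups, which the core set requires. The remaining core members, taken after their values were seen, were the laminin chains LAMB2 (1.09), LAMA5 (1.02) and LAMC1 (0.77), the laminin receptor DAG1 (0.82) and HSPG2. Of 19 collagens 4 rose and 15 did not pass, and the 4 became 0 without control replicate 2 or without both distant libraries, 1 with the trends removed and 2 without control replicate 1. Of 29 integrins and cadherins 6 rose and 2 fell, with ITGA5, the alpha chain of the fibronectin receptor, at 0.74 ± 0.16 and CDH1, the epithelial cadherin, at 0.70 ± 0.16. The 6 rises became 2 without control replicate 2 and 10 with the trends removed, and the 2 falls became 0 without CS2164 replicate 1, control replicate 1 or 2 or IR replicate 2 or without both distant libraries and 1 without CS2164 replicate 2 or 3, control replicate 3, CS2164_IR replicate 1 or 3 or IR replicate 1 or 3. Of 23 metalloproteases and inhibitors 4 rose and 1 fell. The 1 fall became 0 without CS2164 replicate 1 or 3, control replicate 1 or 2 or CS2164_IR replicate 2 or 3 or without both distant libraries. ADAMTS9, a protease of matrix proteoglycans, had 23.4, 24.0 and 18.3 CPM in CS2164, against 10.8, 8.86 and 10.6 CPM in control (1.12 ± 0.19), and MMP14, a membrane-bound collagenase, rose by 0.61 ± 0.14.

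**Figure D3:**
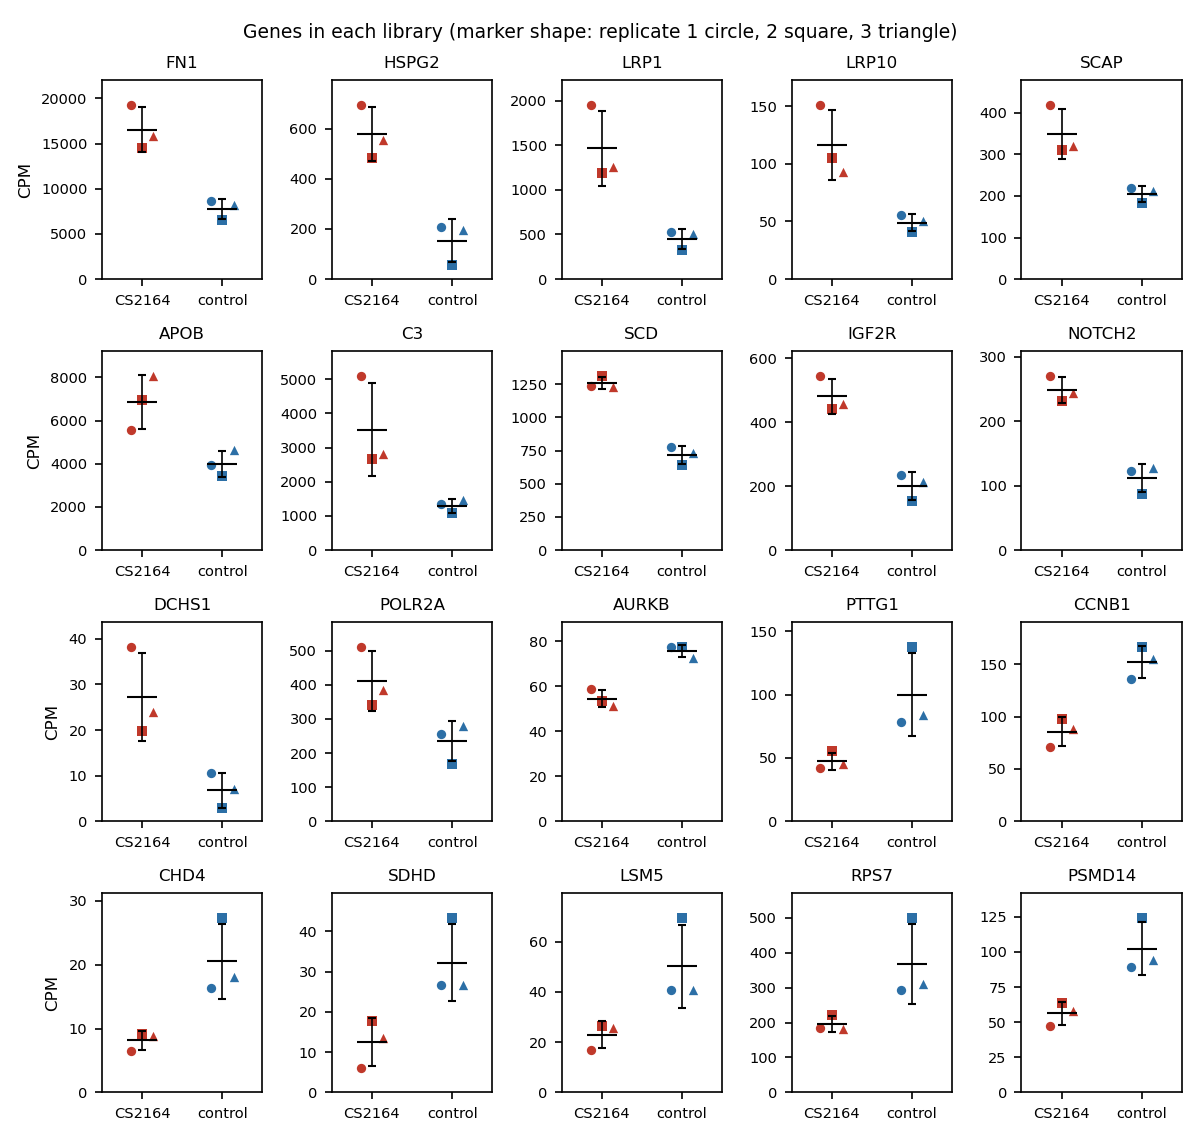
CPM in each CS2164 library (left, red) and each control library (right, blue) for 20 genes named in the text, with marker shapes for replicates and bars for the mean ± SD of 3 libraries. In every panel the groups are separate, with the red points higher from FN1 to POLR2A and lower from AURKB to PSMD14. Separate groups are a condition of the core set.

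Some genes of lipoprotein uptake and of lipid synthesis rose as well. Of 15 tested lipoprotein receptors and related proteins 6 rose, none fell and 9 did not pass, and all 6 were core genes (median 0.60, against 0.40 and 6 rises without both distant libraries, and 0.51 and 6 rises with the trends removed). Without control replicate 2 the number was 4, and over all single libraries left out it ranged from 4 to 8. LRP10, an endocytic receptor, had 151, 105 and 93.0 CPM in CS2164 replicates 1 to 3, against 55.5, 41.1 and 50.5 CPM in control replicates 1 to 3. Its groups did not overlap, with a rise of 1.25 ± 0.18 (adjusted p of 0.00373, edgeR). The core members also included LRP1, LRP5 (1.09), SORL1 (0.72) and LRP6 (0.57), of which LRP5 and LRP6 are Wnt co-receptors. SORL1 (0.60) and LRP6 (0.45) did not pass without control replicate 2. Of 27 genes of cholesterol synthesis and the SREBP2 pathway 9 rose, 1 fell and 17 did not pass (median 0.15, against 0.16, 6 rises and 0 falls without both distant libraries, and 0.17, 9 rises and 1 fall with the trends removed), with 6 core genes. SCAP, the sterol-sensing escort of the SREBP factors, had 419, 311 and 319.5 CPM in CS2164, against 219.6, 184 and 213 CPM in control, a rise of 0.77 ± 0.15. SREBF2, the sterol-regulated transcription factor (0.72), and DHCR7, the last enzyme of cholesterol synthesis (0.88), belonged to the core set too and were taken after their values were seen. CYP51A1 was at 5.70 to 9.42 CPM in CS2164 and 1.82 to 3.62 CPM in control and rose by 1.43 ± 0.29, though another listed gene shares its place and strand, so its count may hold only part of its reads. The member that fell was IDI1, of isoprenoid synthesis (-0.69 ± 0.19), a call that ended without both distant libraries. Without CS2164 replicate 1 or control replicate 2 the number of rises was 6 and of falls 0, and falls numbered 3 without CS2164 replicate 3 and 2 without control replicate 1 or 3.

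Fatty acid and triglyceride synthesis held 10 rises among 28 tested genes and no fall (median 0.33, against 0.22 and 8 rises without both distant libraries, and 0.21 and 7 rises with the trends removed). The number was 6 without control replicate 2, and 6 were core genes. SCD, the desaturase that makes oleate, had 1234, 1312 and 1227 CPM in CS2164 replicates 1 to 3, against 774, 645 and 733 CPM in control replicates 1 to 3, and all 3 CS2164 libraries lay close together above control, a rise of 0.81 ± 0.14. ACACA, acetyl-CoA carboxylase, had 86.7, 98.8 and 89.8 CPM in CS2164, against 53.8, 38.7 and 59.1 CPM in control, a rise of 0.86 ± 0.15. PNPLA3, a lipase of lipid droplets, was at 18.6 to 19.3 CPM in CS2164 and 4.71 to 8.66 CPM in control, a rise of 1.38 ± 0.22. SCD and PNPLA3 kept their size with the trends removed (0.83 and 1.37). The remaining core members, FASN (1.14), FADS2 (0.89) and ACLY (0.65), were taken after their values were seen, and ACLY did not pass without control replicate 2 (0.46). Among 29 genes of fatty acid oxidation and ketogenesis 2 rose and 3 fell. The 2 rises became 1 without CS2164 replicate 1 or control replicate 2 or without both distant libraries, and the 3 falls became 0 without control replicate 2, 1 without CS2164 replicate 2 or 3 or without both distant libraries and 5 with the trends removed. PPARA, the fatty acid receptor that drives oxidation genes, had 82.4, 73.6 and 86.2 CPM in CS2164, against 45.6, 30.5 and 50.7 CPM in control, a rise of 0.93 ± 0.17. APOB, the structural protein of LDL, had 5551, 6936 and 8062 CPM in CS2164, against 3941, 3429 and 4641 CPM in control, a rise of 0.77 ± 0.17. It stood at 0.81 without both distant libraries and 0.67 with the trends removed. APOB was 1 of 4 rises among 21 apolipoprotein and lipoprotein assembly genes, a count that became 1 without control replicate 2 and 2 without CS2164 replicate 1 or without both distant libraries.

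Secreted liver proteins held some calls, beside 19.7% of all tested genes called in either direction. The plasma protein and coagulation lists held smaller shares of calls than that. Of 25 complement genes 6 rose and 1 fell (median 0.14, against 0.14, 4 rises and 1 fall without both distant libraries, and 0.22, 7 rises and 1 fall with the trends removed), with 3 rises and no fall without control replicate 2. C3, the central complement protein, had 5097, 2679 and 2809.7 CPM in CS2164 replicates 1 to 3, against 1346, 1078 and 1468 CPM in control replicates 1 to 3, a rise of 1.44 ± 0.23 that was 0.97 without both distant libraries and 1.02 with the trends removed. MASP1, a protease of the lectin pathway, rose by 0.69 ± 0.15, and C4A by 1.19 ± 0.26, although its near-identical copy C4B may share its reads. Of 25 plasma proteins 2 rose, 1 fell and 22 did not pass, and among 24 coagulation genes 1 rose and 1 fell. For coagulation the 1 rise became 2 with the trends removed, and the 1 fall became 0 without CS2164 replicate 1 or 3 or control replicate 1, 2 or 3, without both distant libraries or with the trends removed. CP, the copper carrier ceruloplasmin, had 229, 201 and 178 CPM in CS2164, against 81.9, 91.0 and 93.2 CPM in control, a rise of 1.19 ± 0.23 that did not pass without both distant libraries (1.12). F5, coagulation factor V, had 959, 1078 and 1235 CPM in CS2164, against 654, 546 and 695 CPM in control, a rise of 0.79 ± 0.15. A2M, the protease inhibitor alpha-2-macroglobulin, was at 2254 to 2814 CPM in CS2164 and 986 to 1666 CPM in control and rose by 0.83 ± 0.21, but without control replicate 2 it stood at 0.63 and did not pass. Among plasma proteins the 2 rises became 1 without control replicate 2 or without both distant libraries, 4 without CS2164_IR replicate 2 and 5 without CS2164_IR replicate 1 or with the trends removed, and the 1 fall became 0 without control replicate 2 and 2 without CS2164 replicate 1 or control replicate 1 or without both distant libraries. Of 25 cytochrome P450 and glucuronosyltransferase genes none passed in edgeR, with 7 at an unadjusted p under 0.05 and 1 called by DESeq2, and 2 rises passed with the trends removed. Of 7 metallothioneins, the metal-binding stress proteins, none passed either, with 1 at an unadjusted p under 0.05 and 1 called by DESeq2. Of 26 hepatocyte transcription factors 5 rose and 1 fell, a share of calls near that over all tested genes. The 5 rises became 2 without CS2164 replicate 1 or control replicate 2 or without both distant libraries and 3 with the trends removed, and the 1 fall became 0 without CS2164 replicate 1 or 3, control replicate 2 or 3, CS2164_IR replicate 1 or 3 or IR replicate 1, 2 or 3, without both distant libraries or with the trends removed. RXRA, a retinoid receptor and the call with the lowest adjusted p among them (0.64 ± 0.14), stood at 0.07 with the trends removed, where it did not pass.

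Receptors and their pathways formed another block of rises. Of 25 tested receptor tyrosine kinases 11 rose and 14 did not pass (median 0.55, against 0.41 and 8 rises without both distant libraries, and 0.26 and 4 rises with the trends removed). The number was 5 without control replicate 2, and 3 were core genes. EGFR, the epidermal growth factor receptor, had 444, 412 and 512 CPM in CS2164 replicates 1 to 3, against 306, 258 and 311 CPM in control replicates 1 to 3, and INSR, the insulin receptor, had 167, 122 and 145 CPM in CS2164, against 88.4, 89.5 and 95.2 CPM in control. Neither overlapped between groups, with rises of 0.65 ± 0.13 and 0.67 ± 0.13. TYRO3, a receptor of the TAM family, rose by 0.69 ± 0.15. Of 18 genes of the IGF axis 7 rose and 11 did not pass (median 0.61, against 0.43 and 4 rises without both distant libraries, and 0.42 and 5 rises with the trends removed). Without control replicate 2 the number was 4. IGF2R, which removes IGF2 and carries lysosomal enzymes, had 545, 440.3 and 458 CPM in CS2164, against 235, 152 and 213 CPM in control, the rise of 1.26 ± 0.16 sharing the lowest adjusted p of the genes named here (0.00233) with LRP1. IRS1, the adaptor of insulin and IGF receptors, rose by 0.99 ± 0.17.

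Of 36 angiogenic ligands, neuropilins and semaphorins, a list that also holds the plexin receptors, 13 rose and 23 did not pass (median 0.31, against 0.26 and 7 rises without both distant libraries, and 0.31, 13 rises and 1 fall with the trends removed), with 8 rises without control replicate 2. PLXNB2 had 798, 508 and 549.6 CPM in CS2164, against 365, 252 and 326 CPM in control, a rise of 0.98 ± 0.18, PLXNA1 rose by 1.00 ± 0.20 and SEMA4B by 1.03 ± 0.20. Plexins are receptors for semaphorins, which guide migrating cells and vessels. Of 25 Notch pathway genes 7 rose and 1 fell (median 0.32, against 0.22, 5 rises and 1 fall without both distant libraries, and 0.13, 7 rises and 2 falls with the trends removed), with 4 rises without control replicate 2. The receptor NOTCH2 had 270.2, 231 and 244 CPM in CS2164, against 123, 86.8 and 127 CPM in control, a rise of 1.14 ± 0.15, and NCSTN, a subunit of the gamma-secretase that cleaves Notch, rose by 0.59 ± 0.13. HES1, a transcriptional target of Notch, was the member that fell, with 39.6, 32.6 and 34.8 CPM in CS2164, against 48.8, 82.2 and 54.1 CPM in control, a change of -0.79 ± 0.17. Of 32 genes of the Hippo pathway and of planar or giant cadherins 13 rose and 19 did not pass (median 0.40, against 0.27 and 7 rises without both distant libraries, and 0.32 and 10 rises with the trends removed). Without control replicate 2 the number was 5. Beside DCHS1 these included the giant cadherins FAT1, with 103, 111 and 116 CPM in CS2164, against 62.3, 30.7 and 60.8 CPM in control (1.10 ± 0.20), and CELSR1 (1.02 ± 0.18). Of 37 TGF-beta and BMP genes 7 rose and 2 fell. FST, which encodes follistatin, a secreted inhibitor of activins, had 18.2, 19.9 and 19.7 CPM in CS2164, against 33.4, 32.9 and 33.8 CPM in control, a fall of 0.79 ± 0.15 with little spread in either group. TGFBR3, betaglycan, rose by 0.72 ± 0.17. The 7 rises became 1 without control replicate 2, 3 without control replicate 3 and 4 without CS2164 replicate 1 or IR replicate 2, without both distant libraries or with the trends removed, and the 2 falls became 1 without CS2164 replicate 1, control replicate 2 or 3, CS2164_IR replicate 3 or IR replicate 2 or without both distant libraries. Of 31 Wnt pathway genes 7 rose and 1 fell. The 7 rises became 1 without control replicate 2, 2 without both distant libraries and 4 with the trends removed, and the 1 fall became 0 without CS2164 replicate 3 or control replicate 2, without both distant libraries or with the trends removed.

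**Figure D4:**
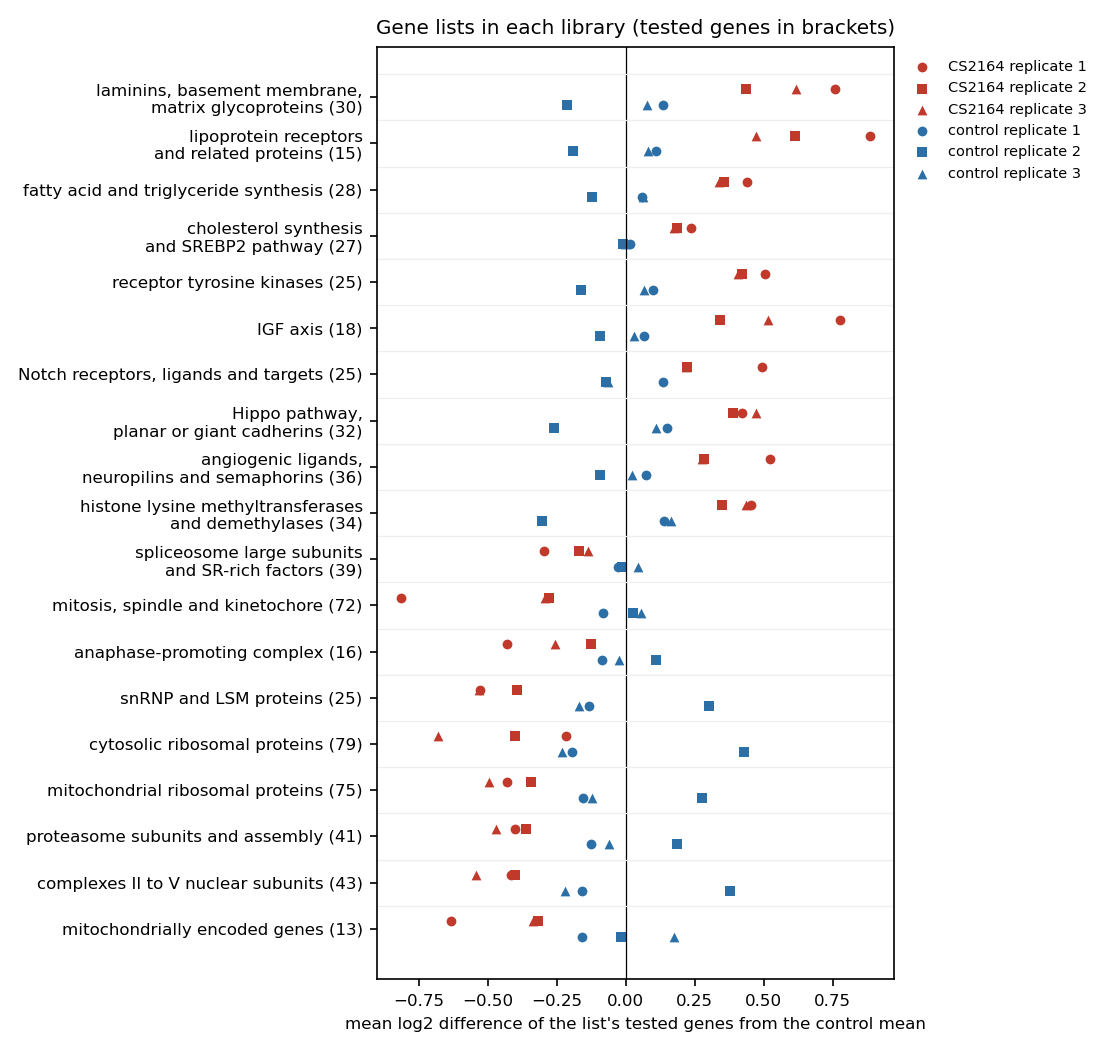
Mean log2 difference from the control mean over the tested genes of 19 lists (horizontal axis), in each CS2164 library (red) and each control library (blue). Within each list the 3 red points lie on 1 side of the 3 blue points, except for cytosolic ribosomal proteins, where CS2164 replicate 1 meets control replicates 1 and 3, and control replicate 2 lies toward the opposite end from CS2164 in most lists.

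Genes of large motor, coat and scaffold proteins were among the rises too. Of 45 dyneins, kinesins and unconventional myosins outside mitosis 17 rose and 4 fell, with 10 core rises (median 0.36, against 0.21, 11 rises and 0 falls without both distant libraries, and 0.22, 12 rises and 5 falls with the trends removed). Without control replicate 2 there were 10 rises and no fall. DYNC1H1, the heavy chain of cytoplasmic dynein, had 817, 679.5 and 707 CPM in CS2164, against 418, 246 and 429 CPM in control, a rise of 1.01 ± 0.18. KIF13B, a kinesin of vesicle transport, rose by 1.00 ± 0.16 and MYO5B, a myosin of apical trafficking, by 1.05 ± 0.20. SPTBN1, the beta chain of spectrin, had 2135, 1691 and 1825 CPM in CS2164, against 1154, 687 and 1099 CPM in control, a rise of 0.94 ± 0.18. TLN1, which encodes talin and links integrins to actin, rose by 0.98 ± 0.18. SPTBN1 belongs to the 46 genes of the actin and tubulin cytoskeleton, of which 13 rose and 5 fell (median 0.06). With the trends removed 4 of these 46 genes rose and 8 fell. Of 33 genes of COPI, COPII and clathrin coats 10 rose and 23 did not pass, among them SEC24C, of the COPII coat, with 179, 129 and 135 CPM in CS2164, against 79.1, 29.5 and 77.2 CPM in control (1.25 ± 0.26). The 10 rises became 4 without control replicate 2, 5 without both distant libraries and 6 without CS2164 replicate 1, and 2 falls passed with the trends removed.

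Chromatin regulators held more rises than falls, by a smaller margin with the trends removed. Of 43 chromatin remodellers, acetyltransferases and deacetylases 20 rose, 3 fell and 20 did not pass, with 10 core rises (median 0.46, against 0.33, 13 rises and 1 fall without both distant libraries, and 0.12, 12 rises and 7 falls with the trends removed). Rises numbered 9 and falls 1 without control replicate 2. CREBBP, the CBP acetyltransferase, had 179.8, 144 and 168 CPM in CS2164 replicates 1 to 3, against 83.8, 43.7 and 87.0 CPM in control replicates 1 to 3, a rise of 1.20 ± 0.20. BRD3, a reader of acetylated histones, rose by 0.90 ± 0.17. CHD4, the helicase of the NuRD complex, was the core gene that fell, with 6.41, 9.17 and 8.82 CPM in CS2164, against 16.3, 27.3 and 18.0 CPM in control. Its change of -1.34 ± 0.22 was -0.93 without both distant libraries and -1.74 with the trends removed. Another gene listed at its place on the same strand averaged under 0.2 CPM. Reads that match both genes may be missing from both, so the CHD4 count may be incomplete. Of 34 histone lysine methyltransferases and demethylases 17 rose and 1 fell (median 0.43, against 0.25, 9 rises and 0 falls without both distant libraries, and 0.19, 4 rises and 3 falls with the trends removed). The rises were 4 without control replicate 2, 10 without CS2164 replicate 3 and 11 without CS2164 replicate 1. KDM6B, a demethylase of histone H3, had 109.7, 84.5 and 86.8 CPM in CS2164, against 61.8, 36.7 and 63.4 CPM in control, a rise of 0.80 ± 0.18. POLR2A, the largest subunit of RNA polymerase II, had 510.2, 340.4 and 384 CPM in CS2164, against 257, 167 and 279 CPM in control, a rise of 0.81 ± 0.18. Among the other 10 tested subunits the sole call was POLR2K (-0.92 ± 0.19), which did not pass with the trends removed (-0.12). In that fit 3 other subunits fell. The 1 fall of the main fit became 2 without CS2164 replicate 1.

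Splicing genes moved in both directions. Of 25 snRNP and LSM proteins, the small proteins that form the cores of spliceosomal particles, 14 fell and none rose (median -0.49, against -0.35 and 8 falls without both distant libraries, and -0.30 and 11 falls with the trends removed). The 14 became 4 without control replicate 2 and 8 without CS2164 replicate 3. LSM5 had 16.9, 26.3 and 25.8 CPM in CS2164 replicates 1 to 3, against 40.7, 69.3 and 40.7 CPM in control replicates 1 to 3, a change of -1.13 ± 0.21, and SNRPD1 had 41.5, 50.5 and 46.5 CPM in CS2164, against 69.6, 121 and 77.5 CPM in control, a change of -0.96 ± 0.18. Of 39 large spliceosome subunits and SR-rich factors 5 rose and 16 fell. The rises included PRPF8, the largest protein of the catalytic core, with 622, 537 and 499.6 CPM in CS2164, against 333, 200.2 and 355 CPM in control (0.90 ± 0.18), and the helicase SNRNP200 (0.82 ± 0.17). The falls included SRSF3 (-0.88 ± 0.17) and SRSF2 (-0.97 ± 0.19), which choose splice sites, and the kinases CLK1, with 110.0, 155 and 164 CPM in CS2164, against 239.7, 302 and 255 CPM in control (-0.89 ± 0.16), and CLK4 (-0.89 ± 0.17), which phosphorylate SR proteins. The 5 rises became 2 without control replicate 2 or without both distant libraries and 3 without CS2164 replicate 1 or 3 or IR replicate 2 or with the trends removed, and the 16 falls became 9 without control replicate 2 and 10 without both distant libraries. RBM3, a cold-inducible RNA-binding protein, had 537, 584 and 510.3 CPM in CS2164, against 859, 1306 and 826 CPM in control and fell by 0.87 ± 0.17.

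The largest falls included genes of ribosome assembly, respiration and RNA handling. By the same rule the largest falls were LTV1, a 40S ribosome assembly factor, with 3.01, 6.50 and 4.35 CPM in CS2164 replicates 1 to 3, against 9.72, 16.0 and 10.1 CPM in control replicates 1 to 3 (-1.38 ± 0.27), and SDHD, the membrane anchor of succinate dehydrogenase, with 6.15, 17.8 and 13.6 CPM in CS2164, against 26.7, 43.3 and 26.8 CPM in control (-1.37 ± 0.29). FABP5, a fatty acid binding protein, had 5.69, 8.09 and 8.57 CPM in CS2164, against 13.1, 26.1 and 16.2 CPM in control (-1.31 ± 0.24). No library of 1 group reached the range of the other in these genes, which the core set requires. ATP5MG, a subunit of the ATP synthase, fell by 1.31 ± 0.23, MRPS6, of the mitochondrial ribosome, by 1.22 ± 0.23, THOC7, of the THO complex of mRNA export, by 1.22 ± 0.23 and SMN1, which assembles snRNPs, by 1.21 ± 0.24. CRLF3 (1.28 ± 0.21), ZMYM6 (1.24 ± 0.26), CEBPZOS (1.22 ± 0.24) and GLMN (1.34 ± 0.30) fell as well and complete the 12 with CHD4, described above among chromatin genes. GLMN did not pass without control replicate 2 (-1.22). LTV1, SDHD, GLMN, FABP5, THOC7 and SMN1 did not pass with the trends and both distant libraries removed together, though all stayed lower in CS2164. The remaining genes of the 12 kept their call in that fit. SMN1 has the near copy SMN2, and LTV1, SDHD, ATP5MG and ZMYM6 lie on the place and strand of other listed genes, so their counts may be incomplete.

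Many ribosomal protein genes fell and none rose. Of 79 tested cytosolic ribosomal proteins 26 fell and 53 did not pass (median -0.46, against -0.32 and 17 falls without both distant libraries, and -0.36 and 20 falls with the trends removed), and 9 were core genes. The 26 became 4 without control replicate 2, 10 without CS2164 replicate 3 and 17 without CS2164 replicate 2. RPS7 had 186, 222 and 181 CPM in CS2164 replicates 1 to 3, against 294, 498 and 309.9 CPM in control replicates 1 to 3 (-0.90 ± 0.19), RPL24 was at 174 to 227 CPM in CS2164 and 279 to 479.5 CPM in control (-0.91 ± 0.19) and RPS27A, which encodes a fusion of ubiquitin and a ribosomal protein, at 128 to 162 CPM in CS2164 and 220.0 to 405 CPM in control (-0.92 ± 0.20). Control replicate 2 was the highest library for all 3, and the groups did not overlap. The list's mean log2 difference was -0.22, -0.40 and -0.68 in CS2164 replicates 1 to 3 and -0.19, 0.43 and -0.23 in control replicates 1 to 3. Reads of these genes can also match their processed pseudogenes. Of 75 mitochondrial ribosomal proteins 29 fell and 46 did not pass (median -0.47, against -0.31 and 13 falls without both distant libraries, and -0.26 and 23 falls with the trends removed), and the 29 became 6 without control replicate 2. MRPL18 had 25.6, 31.3 and 26.6 CPM in CS2164, against 41.3, 56.2 and 42.4 CPM in control, a fall of 0.74 ± 0.15. Of 40 translation factors 8 fell and 2 rose, and of 23 aminoacyl-tRNA synthetases and complex factors 7 fell and none rose. Among translation factors the 2 rises became 0 without control replicate 2 or without both distant libraries and 1 without CS2164 replicate 1 or with the trends removed, and the 8 falls became 1 without control replicate 2 and 4 without both distant libraries. Among synthetases the 7 falls became 1 without control replicate 2 or without both distant libraries and 3 without CS2164 replicate 1.

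Some genes of protein degradation, folding and respiration fell. Of 41 proteasome subunits and assembly factors 19 fell and none rose (median -0.45, against -0.32 and 8 falls without both distant libraries, and -0.28, 2 rises and 16 falls with the trends removed), with 6 core genes. The 19 became 4 without control replicate 2. PSMD14, the deubiquitinase of the proteasome lid, had 47.3, 63.7 and 57.8 CPM in CS2164 replicates 1 to 3, against 89.1, 124 and 94.1 CPM in control replicates 1 to 3 (-0.86 ± 0.16). PSMA3, of the core ring, had 80.4, 102 and 101 CPM in CS2164, against 146, 196 and 148 CPM in control (-0.79 ± 0.15), and the assembly chaperone PSMG2 fell by 0.98 ± 0.19. Of 38 chaperones 15 fell and none rose, and the number was 1 without control replicate 2, 2 without both distant libraries and 7 without CS2164 replicate 1. Of 43 nuclear-encoded subunits of respiratory complexes II to V 17 fell and none rose (median -0.47, against -0.31 and 9 falls without both distant libraries, and -0.22 and 12 falls with the trends removed), with 5 falls without control replicate 2. ATP5MJ, a small subunit of the ATP synthase, had 26.7, 34.1 and 28.2 CPM in CS2164, against 45.3, 73.9 and 44.1 CPM in control (-0.88 ± 0.18). Of 36 complex I subunits 10 fell and 1 rose. The 1 rise became 0 without CS2164 replicate 1 or 2 or control replicate 2 or without both distant libraries, and the 10 falls became 0 without control replicate 2, 1 without both distant libraries and 6 with the trends removed. The 13 genes of the mitochondrial genome had 4 falls and a median of -0.45, against -0.40 and 0 falls without both distant libraries, and 0.05 and 0 falls with the trends removed. OGDH, a large enzyme of the citric acid cycle, had 257, 199 and 196 CPM in CS2164, against 145, 122 and 144 CPM in control and rose by 0.67 ± 0.14.

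Hypoxia genes held rises, NRF2 targets falls, and the other stress, death and immune lists calls in both directions. Over all tested genes 19.7% were called in either direction. Of 33 hypoxia genes 8 rose and 25 did not pass, and the 8 became 2 without control replicate 2, 4 without both distant libraries and 5 without CS2164 replicate 1 or control replicate 3 or with the trends removed. EGLN1, the hydroxylase that marks HIF for destruction, had 78.3, 44.4 and 49.6 CPM in CS2164, against 29.1, 21.7 and 30.9 CPM in control (1.08 ± 0.20), and EPAS1, which encodes HIF-2 alpha, rose by 0.65 ± 0.15. Of 29 genes of the unfolded protein response 5 rose and 1 fell. HYOU1, a chaperone of the endoplasmic reticulum, had 274, 225 and 218 CPM in CS2164, against 147, 107 and 143 CPM in control (0.85 ± 0.15). The 5 rises became 1 without control replicate 2 and 2 without CS2164 replicate 1, without both distant libraries or with the trends removed, and the 1 fall became 0 without control replicate 2 or without both distant libraries, 2 without CS2164 replicate 1 or control replicate 1, 3 without control replicate 3 and 5 with the trends removed. Of 31 NRF2 targets 7 fell and none rose in edgeR. 1 rise passed with the trends removed, and the 7 falls became 0 without control replicate 2, 3 with the trends removed and 4 without both distant libraries. In the BCL2, IAP and caspase families 1 of 25 rose and 3 fell, among them CASP8, the initiator caspase of death receptors, with 55.0, 66.5 and 69.7 CPM in CS2164, against 88.6, 99.2 and 97.9 CPM in control (-0.58 ± 0.14). BIK, a BH3 protein that promotes apoptosis, fell at a low level, with 0.0654, 0.0722 and 0.0630 CPM in CS2164, against 1.14, 0.377 and 0.746 CPM in control (-3.33 ± 0.87). The CS2164 values of BIK lay under the level of 3 counts in a library (0.180 to 0.218 CPM), so the size of its fall is uncertain. The 1 rise became 0 without control replicate 2 or without both distant libraries, 2 without CS2164 replicate 1 or control replicate 1 and 3 with the trends removed. Of 31 interferon-stimulated genes 1 rose and 1 fell. The 1 rise became 0 with the trends removed, and the 1 fall became 0 without CS2164 replicate 1 or control replicate 2 or 3 or without both distant libraries and 2 with the trends removed. Of 18 genes of MHC class I presentation 1 rose and 2 fell: TAPBP, which encodes tapasin and helps to load peptides, had 88.0, 58.7 and 64.6 CPM in CS2164, against 30.7, 19.4 and 36.7 CPM in control (1.28 ± 0.20). The 1 rise became 2 without CS2164 replicate 1, without both distant libraries or with the trends removed, and the 2 falls became 0 without control replicate 2 and 1 without CS2164 replicate 1 or without both distant libraries. CX3CL1, a membrane-bound chemokine, rose by 0.67 ± 0.15, and 24 chemokines and cytokines held 2 rises and 1 fall. The 2 rises became 1 without CS2164 replicate 1, control replicate 2 or 3, CS2164_IR replicate 2 or 3 or IR replicate 1, 2 or 3, without both distant libraries or with the trends removed, and the 1 fall became 0 without control replicate 2, without both distant libraries or with the trends removed and 2 without CS2164 replicate 1 or 2. Among markers of other cells 3 of 7 tested fibroblast and pericyte genes rose, and the 3 became 0 without both distant libraries and 1 without CS2164 replicate 1 or control replicate 1 or 2. Of 4 skin, muscle and fat markers 1 fell. The 1 fall became 0 without CS2164 replicate 3 or control replicate 2, without both distant libraries or with the trends removed. Of 3 endothelial, 4 myeloid and 2 lymphoid markers none passed in edgeR, with 0, 0 and 1 at an unadjusted p under 0.05 and 0, 0 and 1 called by DESeq2, and 1 lymphoid marker passed with the trends removed.

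CS2164 was also given to irradiated mice, and CS2164_IR against IR shares no library with the comparison above. In that pair no gene of 13521 passed in edgeR (0.0%), and 331 had an unadjusted p under 0.05. The test of the difference between both inhibitor changes called no gene either (0.0%), with 2732 at an unadjusted p under 0.05 and 639 called by DESeq2, 162 by edgeR without both distant libraries and 116 with the trends removed. Of the 476 core genes that rose without radiation, 235 were also higher in CS2164_IR than in IR (49.4%), with a median log2 change of -0.000774, and over all tested genes 50.0% were higher. Of the 231 that fell, 160 were lower (69.3%), with a median of -0.05. LRP1 changed by 1.70 ± 0.22 without radiation and 0.20 ± 0.21 with it, FN1 by 1.08 ± 0.18 and 0.11 ± 0.18, and IGF2R by 1.26 ± 0.16 and -0.12 ± 0.16. PTTG1 stood at -1.08 ± 0.18 without and -0.27 ± 0.18 with radiation, CCNB1 at -0.83 ± 0.14 and -0.23 ± 0.14, and AURKB at -0.48 ± 0.13 and -0.15 ± 0.13. The mitosis list had a median of -0.23 within irradiated tumours, beside -0.45 without radiation. The laminin list had 0.08, beside 0.57. CDH1, chosen here after its values were seen, stood at 0.70 ± 0.16 without and 0.57 ± 0.16 with radiation. For none of these genes did the difference between both changes pass.

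**Figure D5:**
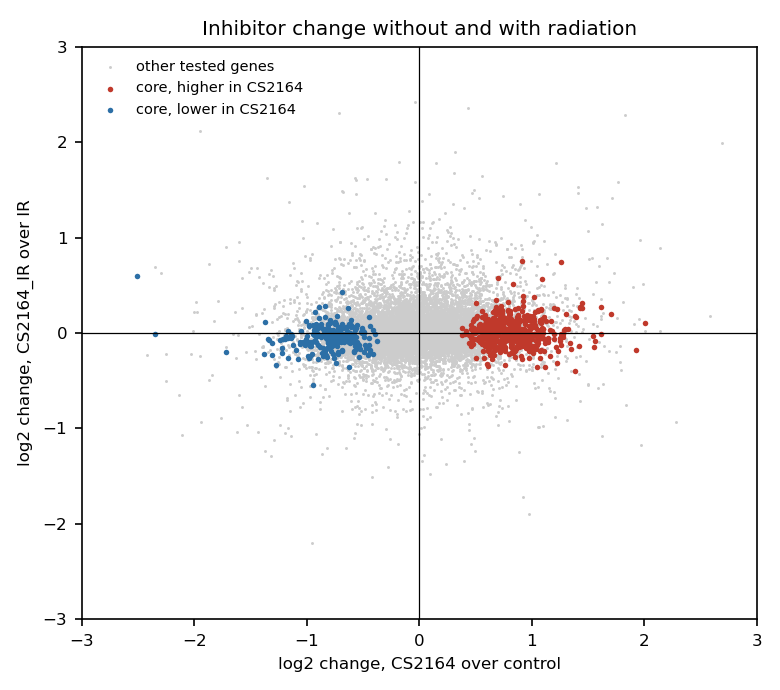
Log2 change of each tested gene in CS2164_IR over IR (vertical axis) against that in CS2164 over control (horizontal axis), with 5 genes outside the axes. Core genes that rose lie right of 0 and those that fell left of 0 on the horizontal axis, and most of both lie near 0 on the vertical axis.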

How the data were processed

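RNA was measured by poly-A sequencing in 12 libraries, 3 in each of 4 groups. The protocol in the labels describes no step that marks strand. HISAT2 2.1.0, HTSeq 0.9.1 and the build GRCh38 are named in the submitters' processing notes, and the sources used here give neither the annotation release nor how mouse reads were handled. The deposited table gives raw read counts per gene, with a parallel set of FPKM values that the authors made and that served only to recover the gene length behind each value. CPM values (counts scaled to a common library size) here use TMM scaling (trimmed mean of M values).

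Counts were tested with edgeR 4.0.16 in R 4.3.3 (filterByExpr, TMM, robust quasi-likelihood fit over all 12 libraries with group as the only term), and the adjusted p is Benjamini-Hochberg over all 13521 genes. Values after ± are standard errors of log2 changes. Trends were removed as offsets, with splines of 4 degrees of freedom over that length and over the GC content of GENCODE release 29 genes. Alternatives used limma 3.58.1, DESeq2 1.42.0, other scalings and filters, the replicate number as a block and leaving out libraries. The fit was tested on simulated data.

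Genes were named by a rule. It took the 12 largest rises and falls in the core set with at least 10 CPM in the higher group, the 5 most abundant in each direction, up to 3 called members a direction of each list by adjusted p, each list's extremes, the kinase targets, ALB and AFP. Those described here were picked from its genes after their values were seen, mostly those whose call held with any library left out. The genes, lists and comparisons were chosen with earlier results of these data known. Some genes of the lists are not reported here by name.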

Additional observations from a re-analysis of the deposited data

How the results depend on the processing

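The counts of called genes depended most on control replicate 2 and on the libraries that share the spread. Leaving out each of the 12 libraries in turn gave 419 to 1386 higher genes, 202 to 1279 lower genes and 621 to 2665 in all. Fitted on the 6 libraries alone, 200 genes were higher and 85 lower, 285 in all. Tested against a 2-fold minimum over all 12 libraries, 0 genes were called in each direction. Without both distant libraries the numbers were 624, 339 and 963, and 510, 357 and 867 when the trends were removed as well, an alternative chosen after the data were seen. The causes of these differences were not tested. Other scalings, filters, limma voom and DESeq2 kept these numbers of higher, lower and all called genes within 1.5 times. Same-numbered CS2164 and control libraries correlated in their deviations from the group means at 0.0996 to 0.149 (other pairs -0.14 to 0.01), and all 6 correlated best with their own number, a hint from the data, as the labels give no shared source. Over pairs of libraries from any 2 of the 4 groups the numbers did not pair them, with -0.372 to 0.149 for the same number and -0.235 to 0.326 for different numbers. With the replicate number as a block 2441 genes were called. Within irradiated tumours leaving out a library gave 0 to 1 calls. The difference between both inhibitor changes gave 0 to 1 when a library was left out, 60 without a filter, 639 with DESeq2, 162 without both distant libraries, 116 with the trends removed and 114 with both. Of 133 called genes with values in the text, 133 kept their call with RLE scaling, 133 with DESeq2, 132 with the block and 82 on the 6 libraries alone. With the trends and both distant libraries removed together 94 kept it and 39 lost it. These genes were mostly picked because their calls held, so these numbers do not describe the called genes at large. With the trends removed AFP turned to 0.11 and ALB to 0.0747, and to 0.17 and 0.14 without both distant libraries as well, with no call in any fit. At this depth 3 counts in a library equal 0.180 to 0.218 CPM, intervals and floors cover counting error only, and 3 libraries a group limit what can be called.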

Other observations

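Most lists in this section held calls in both directions between CS2164 and control tumours. The urea cycle and early response lists held rises only in the fit over all libraries. The background was 19.7% of all tested genes called in either direction. The condensin and cohesin, urea cycle and early response lists held smaller shares of calls than that. Of 31 Mediator subunits, which carry signals of transcription factors to RNA polymerase II, 5 rose and 7 fell. The 5 rises became 1 without control replicate 2 and 3 without CS2164 replicate 3, and the 7 falls became 0 without control replicate 2, 1 without both distant libraries, 3 without CS2164 replicate 1 and 4 with the trends removed. MED22 had 178, 138 and 140.1 CPM in CS2164, against 108, 79.4 and 88.0 CPM in control, a change of 0.72 ± 0.16. Of 29 nucleoporins 5 rose and 3 fell. The 5 rises became 2 without control replicate 2 or without both distant libraries and 3 without CS2164 replicate 1 or 3 or with the trends removed, and the 3 falls became 1 without CS2164 replicate 1 or 3 or control replicate 2 or without both distant libraries. POM121, a membrane nucleoporin, rose by 0.89 ± 0.16 and NUP210 by 1.00 ± 0.20, while NUP107, of the outer ring, had 38.1, 57.5 and 57.1 CPM in CS2164, against 76.6, 97.7 and 81.9 CPM in control, a change of -0.75 ± 0.16. Of 21 condensin and cohesin genes 1 rose and 2 fell. The 1 rise became 2 without CS2164 replicate 1 or without both distant libraries and 3 without control replicate 3 or with the trends removed, and the 2 falls became 0 without CS2164 replicate 1, control replicate 2 or 3, CS2164_IR replicate 3 or IR replicate 2 or without both distant libraries and 1 without CS2164_IR replicate 1 or 2 or IR replicate 1 or 3. SMC1A, a ring subunit of cohesin, was the member that rose, with 525, 586 and 627 CPM in CS2164, against 397, 284 and 419 CPM in control (0.66 ± 0.15).

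Of 30 autophagy genes 3 rose and 6 fell. The 6 falls became 1 without control replicate 2 or without both distant libraries, 2 without CS2164 replicate 1 and 3 without CS2164 replicate 2, CS2164_IR replicate 2 or 3 or IR replicate 2. ATG2A, which carries lipid to the growing autophagosome, had 125, 80.5 and 86.1 CPM in CS2164, against 59.2, 46.6 and 59.7 CPM in control (0.82 ± 0.17), and ATG3, which attaches lipid to LC3, had 47.2, 53.6 and 53.8 CPM in CS2164, against 70.3, 105 and 73.3 CPM in control (-0.69 ± 0.15). Of 44 lysosomal genes 6 rose and 4 fell, a share of calls near that over all tested genes. The 6 rises became 1 without CS2164 replicate 1, 2 without control replicate 2 or IR replicate 2 or without both distant libraries and 3 without control replicate 3, CS2164_IR replicate 2 or 3 or IR replicate 3, and the 4 falls became 0 without control replicate 2, 1 without CS2164 replicate 3 or without both distant libraries and 2 without CS2164_IR replicate 3 or IR replicate 2 or 3. Of 29 ABC transporters 5 rose and 1 fell, again near that share. The 5 rises became 2 without control replicate 2 and 3 without both distant libraries, and the 1 fall became 0 without CS2164 replicate 1 or 2, control replicate 1, 2 or 3, CS2164_IR replicate 1, 2 or 3 or IR replicate 1, 2 or 3 or without both distant libraries and 3 with the trends removed. ABCA2, a lipid transporter of endosomes, had 515, 314 and 285 CPM in CS2164, against 202, 139 and 193 CPM in control (1.06 ± 0.21). Of 46 genes of the actin and tubulin cytoskeleton 13 rose and 5 fell. The 13 rises became 4 without control replicate 2 or with the trends removed, 5 without both distant libraries and 7 without CS2164 replicate 1, and the 5 falls became 0 without control replicate 2, 3 without CS2164 replicate 2 and 8 with the trends removed. Of 24 genes of the urea cycle and amino acid catabolism 2 rose and 22 did not pass. The 2 rises became 0 without CS2164 replicate 1 or control replicate 2 or without both distant libraries, and 1 fall passed with the trends removed. Of 31 early response genes of the AP-1 and MAPK group 3 rose and 28 did not pass. The 3 rises became 0 without control replicate 2 or without both distant libraries and 1 without CS2164 replicate 1, CS2164_IR replicate 3 or IR replicate 2, and 1 fall passed without both distant libraries.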
